A study of Mus musculus with 6 samples.

Results

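FOXO transcription factors and antioxidant genes were examined in LSK cells of mouse bone marrow, which lack lineage markers and carry Sca1 and c-Kit on their surface, a gate that contains stem cells and early progenitors of the blood. The set comprised 10 of 18193 genes: the FOXO factors Foxo1, Foxo3 and Foxo4, the FOXO-regulated inhibitors Txnip and Ccng2, and the enzymes Sod1, Sod2, Cat, Gpx1 and Hmox1. All 26 probe sets whose platform annotation named 1 of these genes and no other were used, of 45037 probe sets that were not array controls. Arrays came from 3 SRF-null and 3 control samples, so precision is limited by how few arrays there are. SRF-null cells were Srf flx/flx;Mx1-Cre and control cells were Srf+/+;Mx1-Cre, both on the C57BL/6 strain. Mx1-Cre is an interferon-inducible recombinase that is active in hematopoietic cells and in several other tissues. Mice of either genotype were injected with pIpC, an RNA mimic of viral infection that induces interferon, in 3 doses of 200 µg spaced by 2 days from the age of 6 weeks, and their cells were sorted 35 days after the final dose. Each sample was sorted from pooled animals, and no source used here says whether pools shared animals. P-values therefore measure the spread between these samples alone, which may be technical in part. Sex-linked transcripts, given below, show that SRF-null replicate 1 and control replicate 2 differed in the sex of their animals from the other pools of their groups. Among those other pools Y-linked transcripts were higher in SRF-null than in control cells.

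FOXO proteins are forkhead transcription factors that are held out of the nucleus when AKT phosphorylates them downstream of growth factor receptors. In the nucleus they activate genes of cell cycle arrest, apoptosis and resistance to oxidative stress, and in mice the loss of Foxo1, Foxo3 and Foxo4 together depletes stem cells and raises their reactive oxygen species. SRF is a transcription factor of actin cytoskeleton and immediate early genes. The question here was whether transcripts of the FOXO and antioxidant genes differed between SRF-null and control LSK cells.

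Promoter sequences of 8 of the 10 genes were taken from RefSeq (build GRCm38.p6), each from 250 bases before to 50 bases after the gene's start. No promoter of Foxo4 or Hmox1 was available, so they were not searched. The forkhead motif GTAAACA, searched on both strands, occurred in 1 of the 8 promoters and in 3.66% of 32544 distinct promoters of the same length. That promoter belongs to Txnip, at chr3:96557707-96558006 on the plus strand, where the match begins at position −121 relative to the start site. It is shown whole because Txnip is a FOXO target in this set and its level varied most between control arrays among the brightest probe sets, with the forkhead letters in capitals.
Txnip: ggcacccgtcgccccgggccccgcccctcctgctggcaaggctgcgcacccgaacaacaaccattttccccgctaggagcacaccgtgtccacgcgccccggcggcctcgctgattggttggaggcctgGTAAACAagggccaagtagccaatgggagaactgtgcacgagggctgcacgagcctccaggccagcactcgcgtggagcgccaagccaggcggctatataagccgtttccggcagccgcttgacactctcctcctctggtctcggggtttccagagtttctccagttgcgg

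The core letters of the antioxidant response element, to which NRF2 with small MAF proteins binds, are TGACNNNGC. Searched on either strand, they occurred in 2 of the 8 promoters and in 12.4% of the 32544 promoters. The 61 bases around each match are shown for comparison, with the match in capitals as it reads on the gene's strand, from chr5:93267491-93267551 for Ccng2 and chr16:90220680-90220740 for Sod1, both on the plus strand. The CArG box, the sequence SRF binds, was in 0 of the 8 promoters and in 1.64% of the 32544. The AP-1 motif TGACTCA was in 0 of the 8 and in 5.19% of the 32544. A match is a description of the letters and not evidence of binding.
Ccng2: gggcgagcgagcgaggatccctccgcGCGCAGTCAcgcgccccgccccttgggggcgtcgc
Sod1: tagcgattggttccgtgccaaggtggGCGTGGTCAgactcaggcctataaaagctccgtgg

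Values below are quantile normalized log2(intensity + 16), given per array for replicates 1 to 3 and as group means ± SD (n = 3 each). A difference is SRF-null minus control, with limma's standard error (SE) and 95% interval. Array medians before normalization were 200.4 to 292.2 intensity units, and 26% to 26.9% of probe sets per array lay under 16, but 0 of the 26 member probe sets did on any array. Of the LSK markers Kit, Cd34, Flt3, Cd48, Procr, Hlf, Mecom and Slamf1 all averaged above 10 in both groups. Srf, the targeted gene, was 12.58, 12.43 and 12.80 on SRF-null arrays, against 13.04, 12.998 and 13.04 on control arrays, on its brighter probe set. Its difference was −0.42 (SE 0.14) and did not pass (limma adjusted p = 1), and the dimmer Srf probe set differed by 0.10 (SE 0.35). The position of these probe sets relative to the deleted exons is not known here, so they do not measure the deletion. Sex-linked transcripts set 2 arrays apart. Xist was 5.03 on SRF-null replicate 1, against 15.13 to 16.24 on the other arrays. The Y-linked Eif2s3y was 4.37 on control replicate 2, against 13.06 to 14.50 on the others. Among the remaining arrays Y-linked transcripts were still higher in SRF-null cells. Kdm5d was 11.84 and 11.97 on SRF-null replicates 2 and 3, against 10.54 and 10.57 on control replicates 1 and 3. Eif2s3y was 14.18 and 14.50 there, against 14.04 and 13.06. Xist overlapped, at 15.60 and 15.13 against 16.24 and 15.57. Leaving out the 2 arrays set apart therefore did not balance the Y-linked transcripts. Where leaving out these 2 arrays changed the sign of a member's difference, the value without them is given beside it. The 3′ minus 5′ log2 signal of array control probes, which reflects RNA quality, averaged 1.15 on SRF-null and 1.326 on control arrays for actin and 0.928 and 1.055 for Gapdh (exact permutation test on both sides, p = 0.4 each, where the smallest p possible is 0.1).

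No FOXO or antioxidant gene passed the test between SRF-null and control cells. Of the 26 probe sets 16 were higher and 10 lower in SRF-null cells, with a median difference of 0.04 beside 0.00 over all probe sets. By limma 0 of the 26 had an adjusted p under 0.05, where the background over all probe sets was 0%, and 0 had an unadjusted p under 0.05, where the background was 4.39%. The groups did not overlap in 1 of the 26, beside 9.24% of all probe sets. The median size of the difference was 0.076 for the member probe sets and 0.154 for all probe sets. These medians were not matched for level. By mean level among all probe sets, the brightest ones of the 10 genes lay between percentiles 54.6 (Hmox1) and 99.7 (Sod1).

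How large a difference these arrays leave possible was read from the 95% intervals. For 6 of the 10 genes, on the brightest probe set, the interval lay inside a 1.5-fold change in either direction, and for 9 of the 10 it lay inside a 2-fold change. Over all 26 probe sets the counts were 12 and 23, beside 34.4% and 70.1% of all probe sets on the array, which were not matched for level. The gene outside the 2-fold range was Hmox1. These intervals rest on the spread between 3 arrays a group, without pairing arrays by replicate number. A p above the threshold does not show that a gene did not differ.

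**Figure D1:**
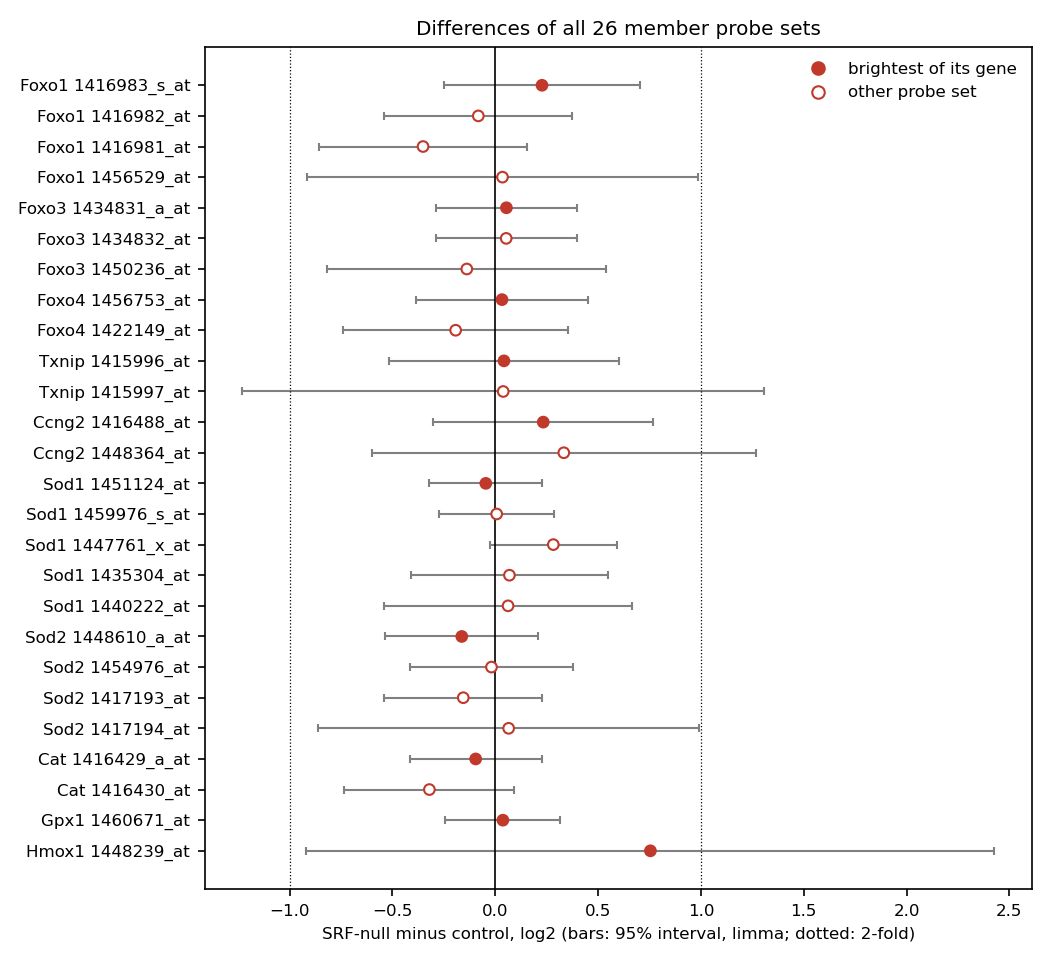
Differences of all 26 probe sets of the 10 genes, SRF-null minus control, in log2 units on the horizontal axis. Points are fitted differences, filled for the brightest probe set of a gene, bars are limma's 95% intervals, and dotted lines mark 2-fold. All 26 intervals include 0, and Hmox1 has the widest, from −0.92 to 2.43.

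Foxo3, the FOXO factor most studied in stem cell maintenance, was 16.51, 16.56 and 16.30 on SRF-null arrays, against 16.52, 16.28 and 16.40 on control arrays, on its brightest probe set. The groups overlapped almost fully, at 16.45 ± 0.14 and 16.40 ± 0.12. The difference was 0.05 (SE 0.14, 95% interval −0.29 to 0.40). On this probe set the interval ran from 0.818 to 1.318 times the control level, given the spread between these samples alone. A second probe set gave the same difference of 0.05, and the dimmest one gave −0.14 (SE 0.28). Without the 2 arrays set apart by sex-linked transcripts these differences were −0.035, −0.039 and 0.116, so each changed sign.

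Foxo4, an X-linked member of the family, had SRF-null values of 15.63, 15.73 and 15.38, against control values of 15.72, 15.32 and 15.60. Its difference was 0.03 (SE 0.17, 95% interval −0.39 to 0.45), and the groups again overlapped. The other Foxo4 probe set was close to the bottom of the scale, at 5.30 ± 0.37 in SRF-null and 5.49 ± 0.18 in control cells. The sign of the difference on the brighter Foxo4 probe set was not stable. It was −0.081 without control replicate 2, −0.044 without SRF-null replicate 2 and −0.11 without the 2 arrays set apart by sex-linked transcripts.

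Foxo1, which in lymphoid progenitors drives genes such as the interleukin-7 receptor, had 4 probe sets that differed in sign. The brightest was 12.20, 12.53 and 11.97 on SRF-null arrays, against 12.01, 11.81 and 12.19 on control arrays, a difference of 0.23 (SE 0.19). This probe set carries the _s_ suffix, which Affymetrix uses for probes shared by similar transcripts. The probe set 1416981_at went the other way, at 9.05, 9.47 and 9.54 on SRF-null arrays, against 9.67, 9.47 and 9.98 on control arrays, with a difference of −0.35 (SE 0.21, 95% interval −0.86 to 0.16). The SRF-null and control arrays of replicate 2 were level on 1416981_at, and before normalization the SRF-null one was the brighter, at 672.3 against 650.8 intensity units. The remaining probe sets gave −0.08 (SE 0.19) and 0.04 (SE 0.39), and the 95% intervals of all 4 overlapped.

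Txnip and Ccng2 were the FOXO-regulated inhibitors in the set. Txnip binds thioredoxin and limits its reducing activity, and it also restrains glucose uptake. On its brightest probe set it was 16.59, 16.77 and 16.69 on SRF-null arrays, against 16.97, 16.18 and 16.78 on control arrays. Control arrays held both the highest and the lowest value, and the means were 16.68 ± 0.09 in SRF-null and 16.64 ± 0.41 in control cells (difference 0.04, SE 0.23). The second Txnip probe set showed the same low array, with 12.66, 12.74 and 13.47 on SRF-null arrays and 13.66, 11.82 and 13.27 on control arrays (difference 0.04, SE 0.52). Leaving out control replicate 2 turned the differences to −0.19 and −0.51, and leaving out SRF-null replicate 1 as well gave −0.14 and −0.359, with none passing.

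Ccng2 encodes cyclin G2, an atypical cyclin that is linked to cell cycle arrest. Both of its probe sets were higher in SRF-null cells without passing. The brighter one was 14.69, 14.75 and 14.18 on SRF-null arrays, against 14.38, 14.03 and 14.51 on control arrays, a difference of 0.23 (SE 0.22, 95% interval −0.30 to 0.77). The dimmer one was 9.74, 9.20 and 9.55 on SRF-null arrays, against 9.71, 8.35 and 9.44 on control arrays, a difference of 0.33 (SE 0.38). Here the SRF-null array was higher in 3 of 3 pairs, but only control replicate 2 lay clearly below the rest. Without that array and SRF-null replicate 1 the differences were 0.03 and −0.20.

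Control replicate 2 was the lowest control array for Foxo3, Foxo4, Txnip and Ccng2 alike on the brightest probe sets, and SRF-null replicate 2 was the highest SRF-null array for all 4. Those 4 genes were grouped after their values were seen. Over all 26 member probe sets control replicate 2 was the lowest of its group in 13, control replicate 1 in 9 and control replicate 3 in 4. Over all 45037 probe sets control replicate 2 was the lowest in 11917 and control replicate 1 in 19581, so the order differed from that of the array as a whole. The part of the pools' sex in these values was not tested.

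**Figure D2:**
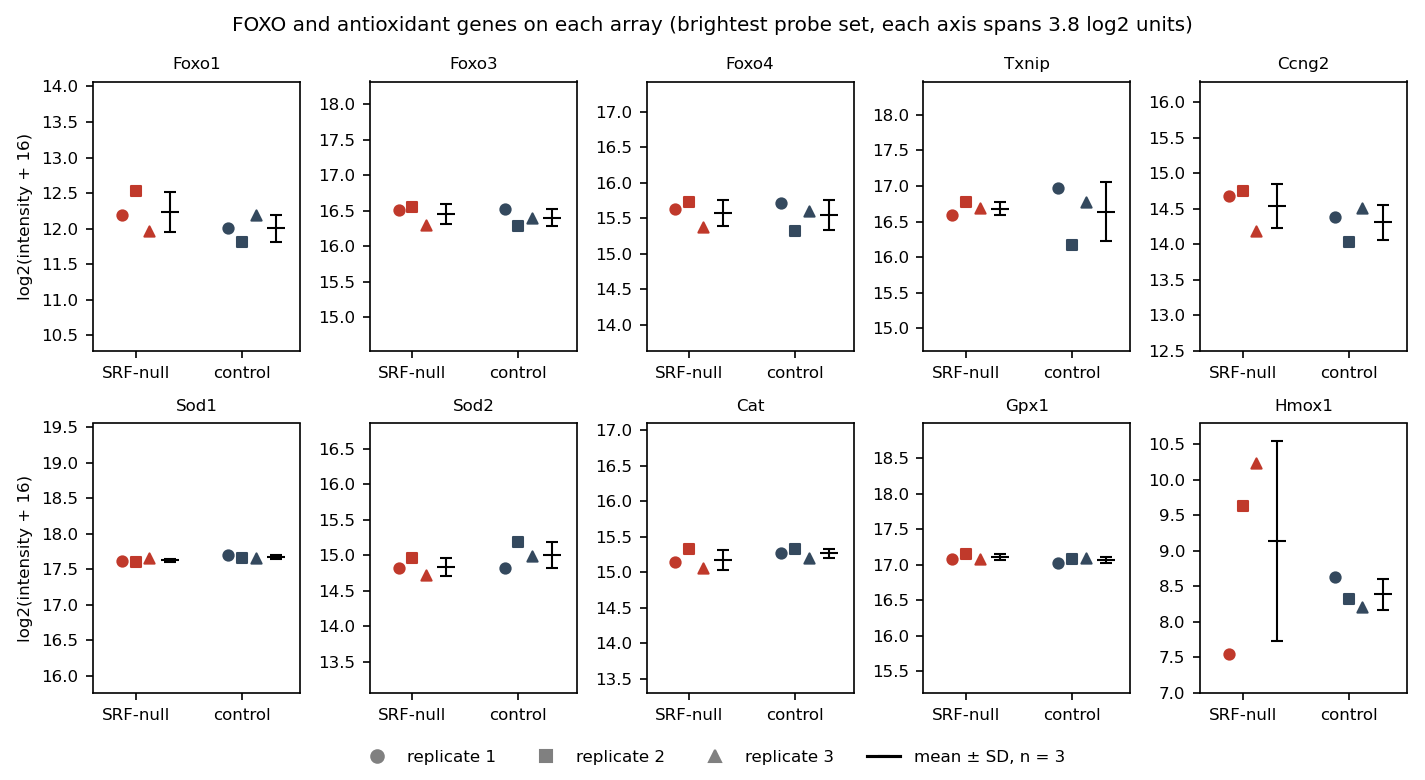
Brightest probe set of each of the 10 genes on every array, as log2(intensity + 16) on vertical axes that each span 3.8 log2 units, with SRF-null arrays left of control arrays. Symbols mark replicates 1 to 3, and the bar is the mean ± SD of n = 3. In all 10 genes the groups overlap or, for Sod1, touch at 17.65, and Hmox1 on SRF-null arrays, from 7.55 to 10.23, is the most spread.

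The superoxide dismutases turn superoxide into hydrogen peroxide, Sod1 in the cytosol and Sod2 in mitochondria. Sod1 was 17.62, 17.60 and 17.65 on SRF-null arrays, against 17.70, 17.65 and 17.65 on control arrays, so the groups touched at 17.65. The difference was −0.05 (SE 0.11, 95% interval −0.32 to 0.23) on this brightest probe set and 0.01 (SE 0.11) on the next. Of the 26 probe sets 1 had groups that did not overlap, the Sod1 probe set 1447761_x_at. It was 13.28, 13.29 and 13.36 on SRF-null arrays, against 12.95, 12.97 and 13.17 on control arrays, and it was higher by 0.28 (SE 0.13, 95% interval −0.03 to 0.59) without passing (limma adjusted p = 1). The _x_ suffix marks probes that may also hybridise to other transcripts, and the brighter Sod1 probe sets did not follow it. The other 2 Sod1 probe sets differed by 0.07 (SE 0.20) and 0.06 (SE 0.25). Without the 2 arrays set apart by sex-linked transcripts the last of these was −0.117 and the second brightest was −0.023.

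Sod2 was 14.83, 14.96 and 14.72 on SRF-null arrays, against 14.82, 15.19 and 14.99 on control arrays, on its brightest probe set. The groups overlapped, and the difference was −0.16 (SE 0.15, 95% interval −0.54 to 0.21). The other Sod2 probe sets gave −0.02 (SE 0.16), −0.16 (SE 0.16) and, on the dimmest, 0.07 (SE 0.38). The first of these 3 was 0.058 without the 2 arrays set apart by sex-linked transcripts.

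Catalase and glutathione peroxidase 1 remove hydrogen peroxide. Cat was 15.14, 15.32 and 15.06 on SRF-null arrays, against 15.27, 15.33 and 15.20 on control arrays, a difference of −0.10 (SE 0.13, 95% interval −0.42 to 0.23). Its second probe set was 12.96, 12.92 and 13.12 on SRF-null arrays, against 13.03, 13.44 and 13.48 on control arrays, a difference of −0.32 (SE 0.17, 95% interval −0.73 to 0.09). Both probe sets were lower on the SRF-null array in 3 of 3 pairs, and neither passed (limma adjusted p = 1 for each). Leaving out control replicate 1 gave the second probe set a difference of −0.47 (limma adjusted p = 0.613), and its adjusted p-values ran from 0.613 to 1 over the alternatives.

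Gpx1, a selenium-containing peroxidase, was 17.08, 17.16 and 17.09 on SRF-null arrays, against 17.02, 17.09 and 17.10 on control arrays. The groups overlapped at 17.11 ± 0.04 and 17.07 ± 0.04. Its difference was 0.04 (SE 0.11, 95% interval −0.24 to 0.32). The interval ran from 0.846 to 1.245 times the control level, given the spread between these samples alone.

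Hmox1, the inducible heme oxygenase that degrades heme and is abundant in macrophages that recycle red cells, had the largest difference of the 10 genes and the largest spread. It was 7.55, 9.64 and 10.23 on SRF-null arrays, against 8.63, 8.33 and 8.20 on control arrays. SRF-null replicates 2 and 3 lay above all control arrays, and SRF-null replicate 1 lay below all of them. The means were 9.14 ± 1.41 and 8.39 ± 0.22, and the difference of 0.75 (SE 0.68, 95% interval −0.92 to 2.43) did not pass (limma adjusted p = 1). It was 1.56 without SRF-null replicate 1, where the unadjusted p was under 0.05 (limma adjusted p = 1). Leaving out SRF-null replicate 3 gave 0.21, and leaving out both arrays set apart by sex-linked transcripts gave 1.52. Over the alternatives its adjusted p-values ran from 0.842 to 1.

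The mean of macrophage markers moved with Hmox1 among the SRF-null arrays, but not every marker did. On SRF-null arrays Cd68 (12.71, 12.25 and 13.20) and Cd163 (11.29, 10.81 and 11.79) were lowest on replicate 2. Csf1r (14.23, 14.40 and 14.21) was lowest on replicate 3. Of 10 measured macrophage markers 10 were higher in SRF-null cells, with a median difference of 0.93 beside −0.01 over all genes. By limma 0 passed, and 4 had an unadjusted p under 0.05, where the background over all genes was 4.95%. Their mean level was 9.45, 10.64 and 10.86 on SRF-null arrays, against 9.05, 9.16 and 9.34 on control arrays, so SRF-null replicate 1 was the lowest SRF-null array here as for Hmox1. That array was also the lowest of its group in the mean of other lists. T cell markers averaged 5.46, 6.44 and 6.52 on SRF-null arrays (control arrays 5.41 to 5.74) and B cell markers 7.28, 7.79 and 9.66 (control arrays 7.11 to 8.63). Granulocyte markers averaged 11.11, 12.17 and 11.87 on SRF-null arrays (control arrays 11.002 to 12.003) and stress genes 12.06, 13.22 and 12.76 (control arrays 12.48 to 13.87). In these list means the low place of SRF-null replicate 1 was not particular to macrophage markers. By summed intensity that array was lowest of its group for T cell markers (454.1, 825.1 and 757.2). It was not lowest for granulocyte markers (308100, 285600 and 312600) or B cell markers (22170, 18990 and 26490). The means of LSK markers ran the other way, at 15.21, 15.05 and 14.53 for SRF-null replicates 1 to 3 (control arrays 14.997 to 15.42). Among control arrays the order was opposite, with Hmox1 highest and the macrophage markers lowest on replicate 1. The summed intensity of the 10 macrophage markers was 30490 to 42090 on SRF-null and 12360 to 33970 on control arrays, and none of them was at 0. Csf1r was the largest part of this sum on every array. It was 19336, 21055 and 18794 on SRF-null arrays, against 4627, 20141 and 25386 on control arrays. The 4 markers with the smallest p were the mannose receptor gene Mrc1 (2.08, SE 0.55), the complement gene C1qa (1.70, SE 0.56), the scavenger receptor gene Cd163 (0.78, SE 0.31) and Adgre1, which encodes F4/80 (1.40, SE 0.57). The part of macrophage RNA in the Hmox1 values was not tested, and in these bulk samples fewer cells of a type and less RNA per cell cannot be told apart.

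**Figure D3:**
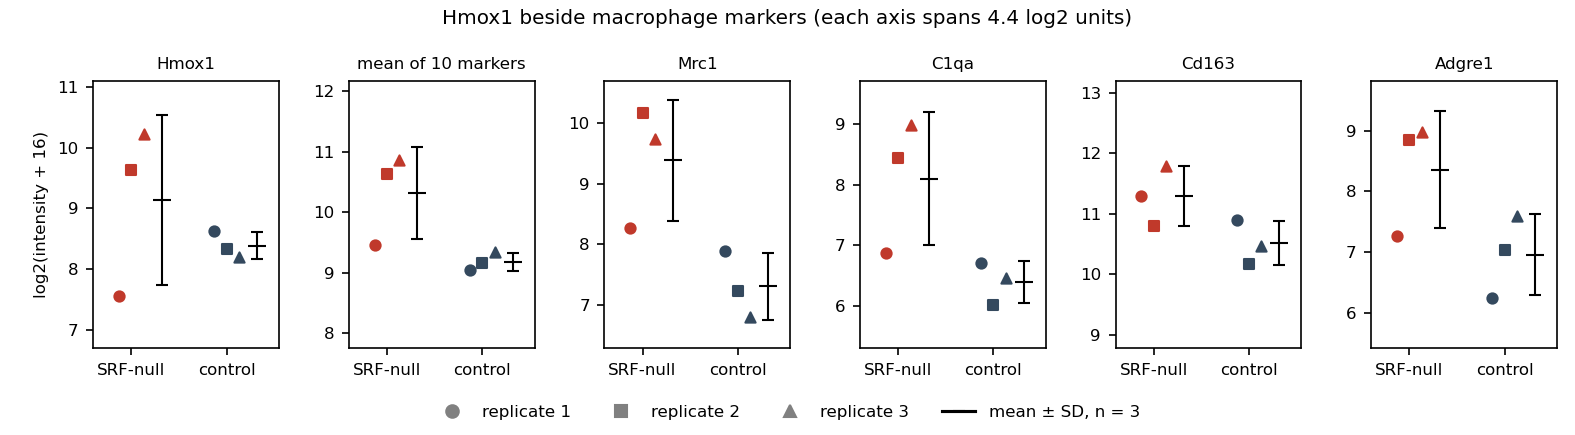
Hmox1, the mean of 10 macrophage markers and 4 of those markers on each array, as log2(intensity + 16) on vertical axes that each span 4.4 log2 units, with SRF-null arrays left of control arrays. Symbols mark replicates 1 to 3 and bars the mean ± SD of n = 3. SRF-null replicates 2 and 3 are high for Hmox1 (9.64 and 10.23) and for the marker mean (10.64 and 10.86), and SRF-null replicate 1 is lower in both.

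Erythroid cells are rich in peroxide-removing enzymes, and 2 of 5 measured erythroid markers, Klf1 and Epor, had the same order as Hmox1 over the SRF-null arrays. Klf1 was 9.80, 12.08 and 12.75 and Epor was 7.65, 8.80 and 10.11 there, while Slc4a1 (6.48, 6.51 and 6.16), Trim10 (5.85, 6.00 and 5.87) and Alas2 (4.46, 4.53 and 4.42) did not follow. On control arrays Klf1 (10.73, 11.12 and 11.21) and Epor (7.91, 9.03 and 9.02) were lowest on replicate 1. Hmox1 was highest on that array (8.63, 8.33 and 8.20). The summed intensity of the 5 was 1184, 4865 and 8057 on SRF-null arrays, against 1999, 2835 and 2993 on control arrays, and most of it was Klf1. The 4 with the smallest p were Trim10 (0.67, SE 0.18), the anion exchanger gene Slc4a1 (−0.23, SE 0.24), the erythroid factor gene Klf1 (0.52, SE 0.75) and the erythropoietin receptor gene Epor (0.20, SE 0.67), and 0 passed. Alas2, the enzyme of heme synthesis in red cell precursors, averaged 4.47 in SRF-null and 4.43 in control cells, near the bottom of the scale. Cat and Gpx1 did not follow Klf1 and Epor, with values on SRF-null arrays that spanned 15.06 to 15.32 and 17.08 to 17.16. Of the other lineages, granulocyte markers had 4 of 8 higher, B cell markers 5 of 5 and T cell markers 4 of 5, with 0 past the adjusted threshold in each list. Stress genes, made up of immediate early, heat shock and unfolded protein response genes, had 5 of 20 higher and 15 lower, with a median difference of −0.21. By limma 0 of them passed, and 5, all lower, had an unadjusted p under 0.05 (Junb, Atf3, Egr1, Xbp1 and Herpud1), where the background was 2.37% of all genes. The part of stress or of other lineages in the member values was not tested.

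Upstream of the FOXO factors, genes of the PI3K and AKT pathway and of FOXO-modifying enzymes did not pass. Of 21 measured genes 13 were higher and 8 lower, with a median difference of 0.03, and 0 passed the adjusted threshold. Sgk1, a kinase that phosphorylates FOXO proteins as AKT does, was 12.57, 12.98 and 12.66 on SRF-null arrays, against 13.16, 13.29 and 13.22 on control arrays. The groups did not overlap, and it differed by −0.49 (SE 0.15, 95% interval −0.86 to −0.11, limma adjusted p = 1). It was the 1 gene of the list with an unadjusted p under 0.05 on the lower side, where the background was 2.37% of all genes. Next came the PI3K catalytic subunit genes Pik3cd (−0.48, SE 0.20) and Pik3ca (0.14, SE 0.17) and Tsc2, which restrains mTOR (0.24, SE 0.29).

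Other FOXO target genes were mixed, with 16 of 25 higher and 9 lower, a median difference of 0.05 and 0 past the adjusted threshold. Fbxo32, which encodes the ubiquitin ligase subunit atrogin-1, was 12.05, 12.05 and 10.81 on SRF-null arrays, against 10.57, 10.42 and 10.57 on control arrays. All SRF-null arrays lay above all control arrays, although SRF-null replicate 3 did so narrowly. The difference was 1.12 (SE 0.36, 2.17-fold, limma adjusted p = 1), and it was the 1 gene of the list with an unadjusted p under 0.05 on the higher side, where the background was 2.58%. The repressor gene Bcl6 differed by 0.43 (SE 0.18), the insulin receptor substrate gene Irs2 by −0.52 (SE 0.30) and Bbc3, which encodes the proapoptotic protein PUMA, by −0.35 (SE 0.24). Of this list 2 genes, Fbxo32 and Bcl6, had SRF-null arrays all above control arrays, where the background was 5.16%.

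Antioxidant enzymes outside the set were evenly divided, with 20 of 39 higher and 19 lower and a median difference of 0.01. The SRF-null mean was the lower one in each of the 4 genes with the smallest p, and 0 genes passed. Gclm, the modifier subunit of the enzyme that starts glutathione synthesis, was 13.62, 13.40 and 13.87 on SRF-null arrays, against 14.18, 14.12 and 14.001 on control arrays. Its groups did not overlap, and the difference was −0.47 (SE 0.16, limma adjusted p = 1). The mitochondrial thioredoxin reductase gene Txnrd2 differed by −0.40 (SE 0.17), the sulfiredoxin gene Srxn1 by −0.49 (SE 0.28) and the methionine sulfoxide reductase gene Msra by −0.19 (SE 0.12). In 3 of the 39, Gclm, Txnrd2 and Msra, the highest SRF-null array was under the lowest control array, where the background was 5.45%, and for Txnrd2 the gap was 11.11 against 11.12. In 1 of the 39, the thioredoxin reductase gene Txnrd1, SRF-null arrays (15.996 to 16.09) all lay above control arrays (15.93 to 15.97), where the background was 5.16%.

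Regulators of NRF2, the factor that induces Gclm, Srxn1 and Hmox1, had 4 of 10 members higher and 6 lower, with a median difference of −0.03 and 0 past either threshold. Nfe2l2, which encodes NRF2, was 14.30, 14.03 and 14.47 on SRF-null arrays, against 14.60, 14.51 and 14.58 on control arrays. The SRF-null arrays lay below the control arrays without passing (difference −0.30, SE 0.15, limma adjusted p = 1). Nfe2l2 was the 1 gene of the 10 with that order, where the background was 5.45% of all genes. The autophagy receptor gene Sqstm1 differed by −0.27 (SE 0.16), Bach2 by 0.28 (SE 0.37) and the small MAF gene Maff by −0.33 (SE 0.47).

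Subunits of the NADPH oxidases, which produce superoxide, had 5 of 7 measured members higher and 2 lower, with a median difference of 0.05. Ncf1, the organizer subunit of the phagocyte oxidase, was 14.16, 14.23 and 14.43 on SRF-null arrays, against 13.70, 13.23 and 13.81 on control arrays. All SRF-null arrays were above all control arrays in this 1 gene of the 7, where the background was 5.16% of all genes. The difference was 0.69 (SE 0.19, 1.62-fold, limma adjusted p = 1). Ncf1 was also the 1 gene of the list with an unadjusted p under 0.05 on the higher side, where the background was 2.58%. The catalytic subunit gene Cybb, also a gene of mature phagocytes, differed by 0.82 (SE 0.96). Nox4 was at the bottom of the scale in SRF-null cells (4.004 ± 0.007), against 4.36, 6.59 and 4.32 on control arrays. The size of its difference of −1.08 depends on the offset and on control replicate 2, without which it was −0.337. The dim Duox1 differed by 0.10 (SE 0.25).

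**Figure D4:**
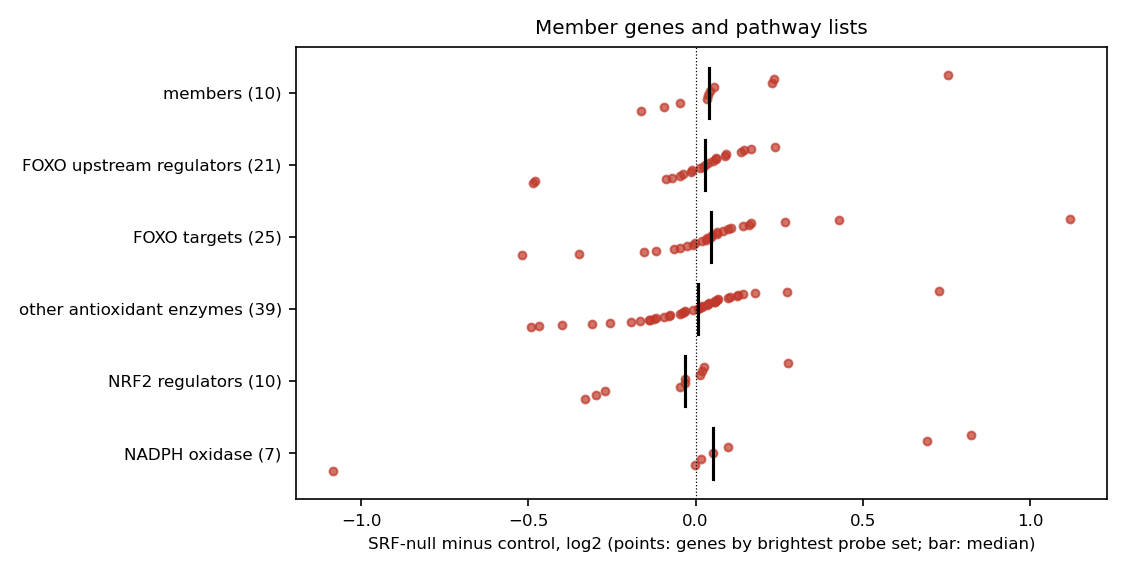
Differences of the 10 member genes and of 5 pathway lists, SRF-null minus control, in log2 units on the horizontal axis, with 1 point per gene by its brightest probe set and a bar at each list's median. Medians lie between −0.03 and 0.05, and the farthest points are Fbxo32 (1.12) and Nox4 (−1.08, or −0.337 without control replicate 2).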

How the data were processed

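The authors deposited 1 linear intensity for each probe set on each array, a unit read from the values. How these were summarised, background corrected and scaled is not stated in the sources used here. Amplification and labelling started from 30 ng of RNA with a NuGEN kit for Affymetrix arrays, per the labels' protocols. Of 45101 probe sets 64 array controls were left out. The annotation names 1 gene for 34945 of the others, several for 932 and none for 9160. Intensities were converted to log2(value + 16), which understates changes of dim genes, and quantile normalized because array medians differed by 0.51. SRF-null and control arrays were compared with limma 3.58.1 in R 4.3.3 (genotype as the only term, Benjamini-Hochberg over 45037 probe sets, threshold 0.05), a step tested on simulated data. For gene lists each gene is represented by its brightest probe set, and lists were described by counts and medians with no set test. The text names all members and the 4 genes of smallest p in the pathway, macrophage and erythroid lists, and genes named beyond these were chosen after their values were seen.

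The members, lists and tests were chosen with earlier results of these data known. Both genotypes have replicates numbered 1 to 3. Same-numbered arrays deviated together from their group means (correlations 0.473, 0.21 and 0.427). The numbers were therefore taken to pair the arrays, and a fit with the replicate number as a block was run. SEs, intervals and p-values in the Results come from fits without the block. As each replicate number occurs in both genotypes, the block cannot change member differences, and it moved SEs both ways. On the brighter and dimmer Ccng2 probe sets they went from 0.218 to 0.242 and from 0.381 to 0.219. On the brightest and dimmest Foxo3 probe sets they went from 0.14 to 0.149 and from 0.276 to 0.142. With the block 0 member probe sets had an unadjusted limma p under 0.05. Alternatives covered the offset, normalization, dim probe sets, variance model, the block, each array left out and the 2 arrays set apart by sex-linked transcripts. Figures were drawn with matplotlib 3.10.9.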

Additional observations from a re-analysis of the deposited data

How the results depend on the processing

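None of the 26 member probe sets passed an adjusted p of 0.05 under any of the 14 alternatives, nor did a gene of the pathway lists. Over all probe sets 1 passed after median centring, and 0 to 1 with 1 array left out. The count of all probe sets with an unadjusted p under 0.05, 1975, was 3189 with the replicate number as a block, 1230 after median centring, 1127 with only probe sets above the median level and 1291 without the 2 arrays set apart by sex-linked transcripts. With 1 array left out it was 1426 (control replicate 2) to 3428 (control replicate 1). The replicate block changed no adjusted call of a member or list gene. Members with an unadjusted p under 0.05 numbered 1 with an offset of 64 (a Sod1 probe set), 1 without the 2 arrays (Hmox1) and 0 to 1 with 1 array left out. List genes with an unadjusted p under 0.05, 15, numbered 19 with the replicate block and 7 to 17 with 1 array left out.

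Of 360 member values under alternatives 326 kept their sign and 34, in 14 probe sets, did not, and the cause was not tested. The replicate block, the variance model and the removal of dim probe sets cannot change a difference. Signs kept under those alternatives were therefore fixed in advance, for members and for the other named genes. With 1 array left out, the probe sets that changed sign ranged from −0.18 to 0.094 and from −0.35 to 0.292 (Foxo1), from −0.008 to 0.132, −0.013 to 0.136 and −0.387 to 0.029 (Foxo3), from −0.081 to 0.134 (Foxo4), from −0.19 to 0.206 and −0.508 to 0.414 (Txnip), from −0.076 to 0.609 (Ccng2), from −0.025 to 0.032, −0.043 to 0.22 and −0.095 to 0.299 (Sod1), and from −0.125 to 0.082 and −0.245 to 0.348 (Sod2). The lowest value of the brighter Foxo3 probe sets, Foxo4, Txnip and Ccng2 came without control replicate 2. Without the 2 arrays together the reversed values were Foxo3 −0.035, −0.039 and 0.116, Foxo4 −0.107, Txnip −0.14 and −0.359, Ccng2 −0.198, Sod1 −0.023 and −0.117, and Sod2 0.058. Median centring gave Txnip −0.004. Among the other named genes 10 of 413 values reversed, with ranges of −0.612 to 0.114 (Maff), −0.104 to 1.474 (Cybb), −0.071 to 0.299 (Duox1), −0.08 to 1.404 (Klf1), −0.427 to 0.805 (Epor) and −0.196 to 0.396 (the dimmer Srf probe set) with 1 array left out, and Bach2 was −0.214 without the 2 arrays.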
